A study of Drosophila melanogaster with 2 samples.

Results

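The GAGA factor, the product of the Drosophila gene Trl, was profiled by chromatin immunoprecipitation and sequencing (ChIP-seq) in Kc cells, and the regions described here are its binding peaks that lie in close pairs. Peaks were sorted along each chromosome, and neighbours were joined where the gap between them, from the end of a peak to the start of the next, was under 2000 bp. A joined run of exactly 2 peaks is a pair. Of the 3842 peaks of the list, 1054 (27.4%) lay in 527 pairs. The remaining peaks were 1741 single peaks, 534 peaks in runs of 3 and 513 peaks in runs of 4 or more. Pairs made up 64.8% of the 813 runs that held 2 or more peaks.

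Kc is an established Drosophila melanogaster cell line of embryonic origin, and no treatment of the cells is listed. The labels list 1 ChIP sample, made with an antibody named KW3-Trl-D2, and 1 sample of input chromatin, whose title shows that it also served a K4me3 experiment. The growth protocol in the labels describes egg collection from flies, so the culture of the cells is not given in the sources used here. Although the design text of the series mentions 2 replicates, 1 ChIP sample is listed, and whether the list joins several libraries is not stated. Peaks of a single list were analysed, so every value below is a description of that list, without a replicate and without a test. The number of reads behind the peaks is unknown, and so is the precision it would give. Pairs were selected on measured values, the starts and ends of called peaks, and widths and scores come from the same peak calls, so none of these is independent of the choice.

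The GAGA factor binds short GA-rich elements through a zinc finger, and its BTB/POZ domain lets several molecules assemble on elements that lie near each other. It is known for keeping chromatin open at promoters, among them those of heat shock genes, and for acting at many elements bound by Polycomb proteins. Its target sites often hold several GA elements in a row. Neither the sequence under the peaks nor the genes beside them were analysed here, so the target of the antibody was not checked against GA elements.

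By the rule, the gap within a pair is under 2000 bp, and most gaps lay well below this limit. The gap had a median of 350 bp, and the middle 50% of pairs lay between 121.5 and 897 bp. The smallest gap was 1 bp and the largest 1995 bp. Gaps under 100 bp were found in 115 pairs (21.8%) and gaps under 250 bp in 215 pairs (40.8%). A further 103 pairs had gaps of 250 to under 500 bp, and 93 had gaps of 500 to under 1000 bp. The widest spacing, 1000 to under 2000 bp, was found in 116 pairs (22.0%). The distribution of gaps was highest at its short end and had a long, flat tail up to the limit of the rule.

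The distance between midpoints takes the widths of the peaks into account. Its median was 983.5 bp, and its quartiles were 707 and 1536 bp. In 268 pairs (50.9%) the midpoints lay under 1000 bp apart, and in 64 pairs (12.1%) they lay 2000 bp or more apart. Counted in bins of 100 bp, the fullest bin ran from 700 to 800 bp and held 56 pairs. Only 8 pairs had midpoints under 400 bp apart, and the shortest distance was 308 bp. Midpoints cannot lie closer than the mean of both widths, so the widths set the lower end of this distribution.

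**Figure D1:**
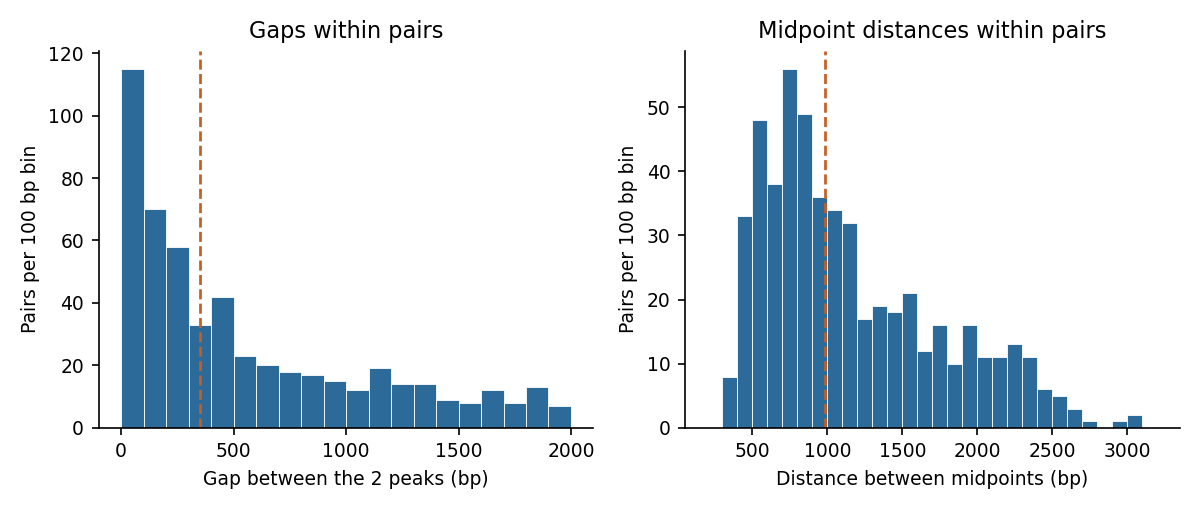
Number of pairs per 100 bp bin of the gap between the peaks (left) and of the distance between their midpoints (right), for all 527 pairs, with the median as a dashed line. The first bin of the gaps held 115 pairs, while the midpoint distances were fullest from 700 to 800 bp with 56 pairs.

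From the start of the left peak to the end of the right one, a pair spanned a median of 1576 bp, with extremes of 614 and 4169 bp. Peaks covered a median of 74.8% of that span. In 284 pairs (53.9%) the gap was shorter than the narrower of the 2 peaks, and in 166 pairs (31.5%) it was longer than the wider one. In total the members covered 629 kb, which was 26.8% of the bases under all peaks of the list.

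Among the pairs with the shortest gaps, the peaks all but touched. Coordinates here and below are 1-based positions in the BDGP5 assembly. The pair with the smallest gap, 1 bp, lay on 3R, with peaks at 3R:14748797-14750033 and 3R:14750035-14750468. Its left peak scored 1392.73 and its right peak 915.43. A pair on 3R with a gap of 2 bp, at 3R:2718785-2719152 and 3R:2719155-2719398, had the shortest midpoint distance of all and scored 54.5 and 57.31. Both peaks of that pair scored close to the lowest value of the list, 50.11. Gaps of 3 bp included 2 pairs on 2L. At 2L:5092865-5093411 and 2L:5093415-5093676 the scores were alike, at 104.83 and 97.81. At 2L:11066210-11066498 and 2L:11066502-11067386 they were far apart, at 61.37 and 2394.06. Abutting peaks were thus found with both weak, both above the median score of the list (379.8), and 1 weak and 1 strong.

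At the other end, the pair with the largest gap, 1995 bp, lay on 2R at 2R:2497507-2498284 and 2R:2500280-2501418. It was followed by gaps of 1947 bp at 3L:16995229-16995579 and 3L:16997527-16997862, of 1940 bp at 3R:20412103-20412656 and 3R:20414597-20415141, and of 1930 bp at 3R:22893070-22893633 and 3R:22895564-22896269. Just beyond the limit were neighbours with gaps of 2004 bp on 3L, 2007 bp on 2R, 2009 bp on 3R and 2011 bp on 2R. The 4 pairs just inside had scores from 98.16 to 2426.4, and the 4 couples just outside had scores from 84.67 to 3100. Scores on the 2 sides of the limit overlapped.

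The score of a peak is the value that the peak caller wrote for it, on a scale the header leaves unnamed. At its top, 3233.06 equals -10 log10 of the smallest number that double precision can hold, as a p-value on that scale would. A value of exactly 3100 was shared by 267 peaks of the list, 68 of them in pairs, so the score does not rank the strongest peaks among themselves. Members of pairs had a median score of 421, with quartiles at 125 and 1256, against a median of 379.8 over all peaks. Scores under 100 were held by 20.6% of the members and by 21.1% of all peaks.

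Within a pair, the peak with the higher score is called the stronger one here. The stronger peak had a median score of 965 and the weaker peak a median of 157, and the median difference within a pair was 492. Taking the higher and the lower of 2 values sets these medians apart by construction. The relation between left and right is free of that choice. Across the 527 pairs, the scores of the left and right peaks had a Spearman rho of 0.06, with both scores from the same library and the same peak calls. The score of a peak thus said little about the rank of its partner. The rho lay between -0.03 and 0.12 in all 5 classes of gap. For neighbours 2 to 5 kb apart it was 0.03 (365 couples), and for neighbours 20 kb or more apart it was 0.07 (1397 couples). Between the first and last peaks of the 178 runs of 3 it was 0.15, the highest of these values.

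By quartiles of the whole list, whose limits were scores of 117.6, 379.8 and 1295, both peaks fell in the same quartile in 152 pairs (28.8%). The highest quartile held both peaks in 37 pairs and the lowest quartile held both in 31. A peak of the highest quartile beside one of the lowest was found in 66 pairs (12.5%), with either of them on the left. Each quartile holds about the same share of the list, so peaks unrelated in score would also fill all these combinations. The counts that unrelated peaks would give were not computed, so these are not read as a trait of pairs. Both peaks scored 1000 or more in 58 pairs (11.0%), and both scored under 100 in 20 pairs (3.80%). Of all peaks, 21.1% scored under 100, and the share scoring 1000 or more was not computed. These counts are therefore not read as a trait of pairs either. In 197 pairs (37.4%) the weaker peak scored under 100, so these pairs rest on a call near the lower end of the list.

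**Figure D2:**
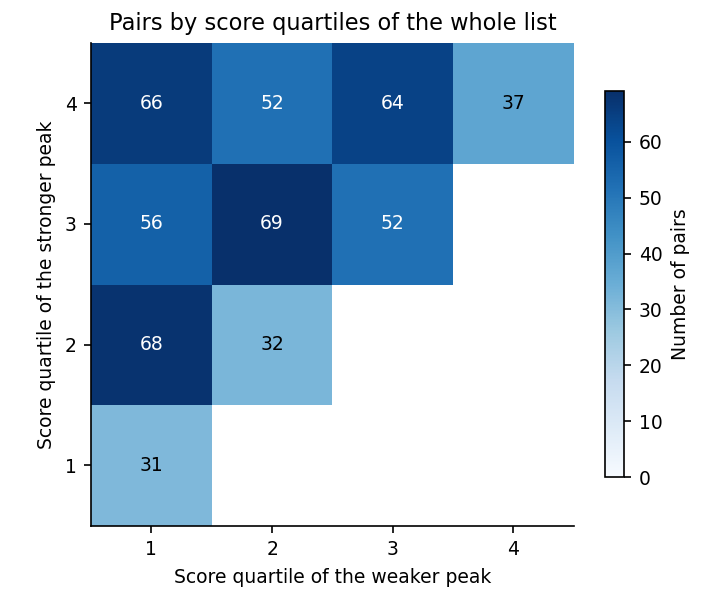
Number of pairs by the score quartile of the weaker peak (horizontal) and of the stronger peak (vertical), with quartiles taken over all 3842 peaks of the list and 4 the highest. Cells off the diagonal can be filled by either peak being on the left, so their counts are not directly comparable with those on the diagonal. The cell of the highest with the lowest quartile held 66 pairs, and 37 pairs had both peaks in the highest.

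The pairs with the highest lower score were found on 2R, 3R and X. Scores of 3100 or more in both peaks were met in 4 pairs. Of the 1054 members, 6.45% scored exactly 3100 and 0.854% scored above it, and 6.95% of all peaks scored exactly 3100. How many such pairs unrelated peaks would give was not computed. On 2R, peaks of 1831 and 749 bp at 2R:13603530-13605360 and 2R:13606560-13607308 both scored 3100 and lay 1199 bp apart. On 3R, peaks of 1718 and 1208 bp at 3R:26212353-26214070 and 3R:26214152-26215359 both scored 3100 and lay 81 bp apart. These 2 pairs show that the tied score was held across both short and long gaps.

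On X, the pair at X:7199964-7201162 and X:7201356-7202436 also scored 3100 in both peaks, with a gap of 193 bp and widths of 1199 and 1081 bp. On 3R, the pair at 3R:14989454-14990818 and 3R:14991113-14991988 scored 3100 and 3221.92, with a gap of 294 bp. The next in order were a pair on 2R at 2R:5842388-5843511 and 2R:5845441-5846556, with scores of 3100 and 2940.83, and a pair on 3R at 3R:7392221-7393267 and 3R:7394458-7395294, with scores of 2939.16 and 3100. The former had the longest midpoint distance of any pair, 3049 bp.

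Ranked by the sum of both scores, the leading pairs of 2R, 3R and X were among those just named. On 2L the leading pair lay at 2L:12482789-12483892 and 2L:12484007-12484805 and scored 3100 and 2509.12. On 3L it lay at 3L:22815465-22817167 and 3L:22817458-22818507 and scored 2915.97 and 3100. Gaps of these pairs were 114 and 290 bp. Each arm thus carried at least 1 pair with both scores above 2500.

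Peaks of a pair differed in width by a moderate factor. The wider peak had a median width of 665 bp and the narrower one a median of 419 bp. The ratio of the wider to the narrower had a median of 1.495 and quartiles of 1.23 and 1.99. It was under 1.2 in 113 pairs (21.4%), 2 or more in 130 (24.7%) and 3 or more in 32 (6.07%). Widths of the left and right peaks had a Spearman rho of 0.13 across the 527 pairs. Members of pairs as a whole had a median width of 514 bp, close to the 522 bp of all peaks.

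The wider peak was mostly also the stronger one. Of the 524 pairs whose peaks differed in score, the wider peak had the higher score in 390 (74.4%). The share was 93.8% in the 129 pairs with a width ratio of 2 or more and 55.4% in the 112 pairs with a ratio under 1.2. Width and score of the 1054 members had a Spearman rho of 0.70, and both come from the same peak calls. How often the wider peak was the stronger in couples outside pairs was not computed. The majority is therefore not read as a trait of pairs. The pair with the widths most alike, 565 and 563 bp at 3L:748435-748999 and 3L:749057-749619, had scores of 971.43 and 2276.97. On X, peaks of 561 and 557 bp at X:2536508-2537068 and X:2537075-2537631, only 6 bp apart, scored 2789.92 and 117.42. On 2R, peaks of 512 and 508 bp at 2R:9336608-9337119 and 2R:9337302-9337809 scored 408.39 and 1560.34. Another of the 4 pairs with the widths most alike, with 1124 and 1116 bp at 2R:5842388-5843511 and 2R:5845441-5846556, had similar scores of 3100 and 2940.83. Near-equal widths were found with both unequal and similar scores.

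The largest asymmetries joined a broad, strong peak to a short, weak one. On 2R, a peak of 299 bp with a score of 76.49 at 2R:14242624-14242922 lay 84 bp before a peak of 2602 bp with a score of 3100 at 2R:14243007-14245608. This was the largest width ratio of all pairs, 8.70. On 3R, a peak of 296 bp at 3R:276406-276701 scored 92.45 and its partner of 2099 bp at 3R:277909-280007 scored 3100, a width ratio of 7.09 over a gap of 1207 bp. The next were a pair on X at X:4217920-4218250 and X:4218491-4219959, with a ratio of 4.44, and a pair on 3L at 3L:6935740-6937077 and 3L:6937542-6937847, with a ratio of 4.37. In all 4 the narrow peak scored under 100, and it lay on the left in 3 of them.

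Left and right are the order along the reference and carry no direction of transcription. The left peak was the wider one in 293 pairs (55.6%) and the right peak in 234 (44.4%), with medians of 544 and 495 bp. The left peak had the higher score in 282 pairs and the right peak in 242, with median scores of 539 and 348. By gap, the left peak was wider in 61.7% of the 115 pairs with gaps under 100 bp and in 56.0% of the 100 pairs with gaps of 100 to under 250 bp. It was wider in 54.4%, 48.4% and 56.0% of the pairs in the 3 classes of longer gap, in order of length. By arm the share was highest on 3R (61.0%) and 2L (60.5%), followed by 3L (58.3%), X (54 of 108 pairs) and 2R (47.1%). Among neighbours 2 to 5 kb apart the left peak was the wider in 49.6% of 365 couples, and between the first and last peaks of the 178 runs of 3 it was the wider in 47.2%. The excess on the left thus varied between arms and was absent on 2R and X, and it was not tested.

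**Figure D3:**
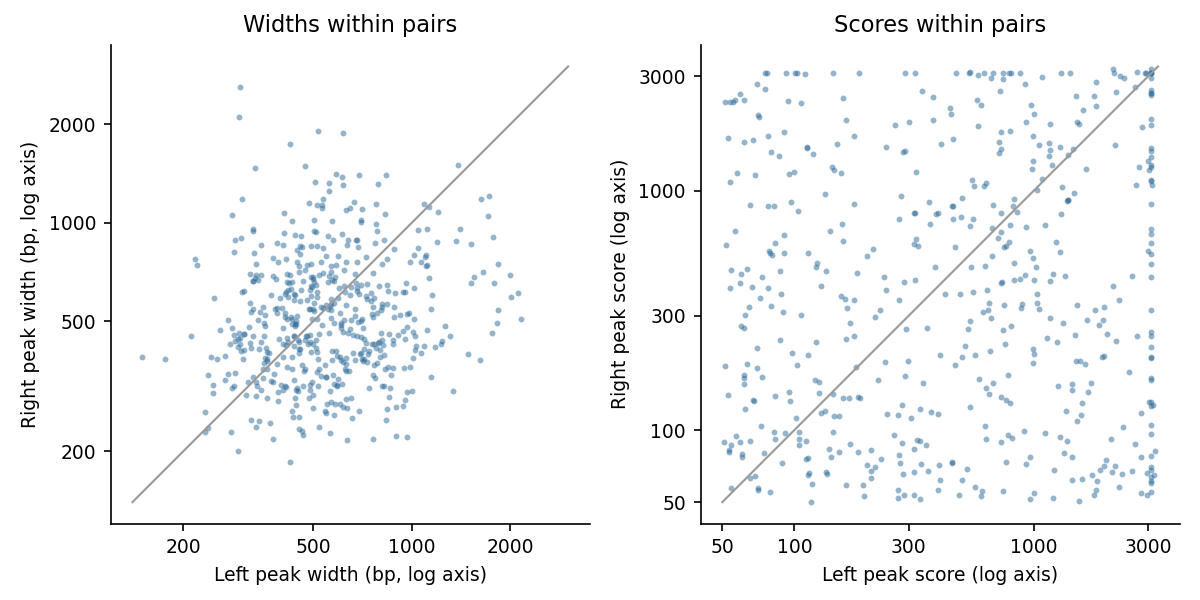
Width in bp (left panel) and score (right panel) of the left and right peaks of each of the 527 pairs, on log axes, with a line where both peaks are equal. Points are spread widely around the lines, with Spearman rho of 0.13 for widths and 0.06 for scores, and the rows of points at a score of 3100 are tied values.

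The gap between the peaks had little relation to how strong or wide they were. Across pairs, the gap had a Spearman rho of -0.01 with the lower score and -0.003 with the higher score. Its rho was 0.04 with the summed width of both peaks and 0.01 with the width ratio. The median stronger score was 894 in pairs with gaps under 100 bp and 1008 in those with gaps of 1000 to under 2000 bp, and the median weaker score was 178 and 162. The median width ratio lay between 1.47 and 1.52 in all 5 classes of gap. What did follow the gap was the share of the span under peaks, from a median of 95.6% in the shortest class to 44.8% in the longest, as its definition requires.

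The rule places every outside peak at least 2 kb from a pair, and most lay well beyond that. The nearest peak outside a pair was at a median distance of 10.8 kb, with quartiles at 4.51 and 24.5 kb, over the 526 pairs with another peak on the chromosome. It lay under 5 kb away from 146 of all 527 pairs (27.7%), and 50 kb or more away from 53 (10.1%). On the far side, the next peak was at a median of 46.3 kb, over the 524 pairs with a peak on both sides. Single peaks had their nearest other peak at a median of 12.7 kb, with quartiles at 5.22 and 28.2 kb, under the same limit of 2 kb. Of single peaks, 23.5% had another peak under 5 kb away.

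The nearest outside peak lay before the pair in 263 cases and after it in 263, so neither side was favoured. It was a single peak for 360 pairs (68.3%), a member of another pair for 116 (22.0%) and part of a longer run for 50 (9.49%). For comparison, single peaks made up 68.2% of all runs, pairs 20.6% and longer runs 11.2%. The median score of the nearest outside peak was 342. It scored above both peaks of the pair in 153 cases (29.1%), below both in 189 (35.9%) and between them or equal to 1 of them in 184 (35.0%). The distance to it had a Spearman rho of -0.04 with the higher score, -0.04 with the lower score and -0.01 with the gap, over 526 pairs.

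**Figure D4:**
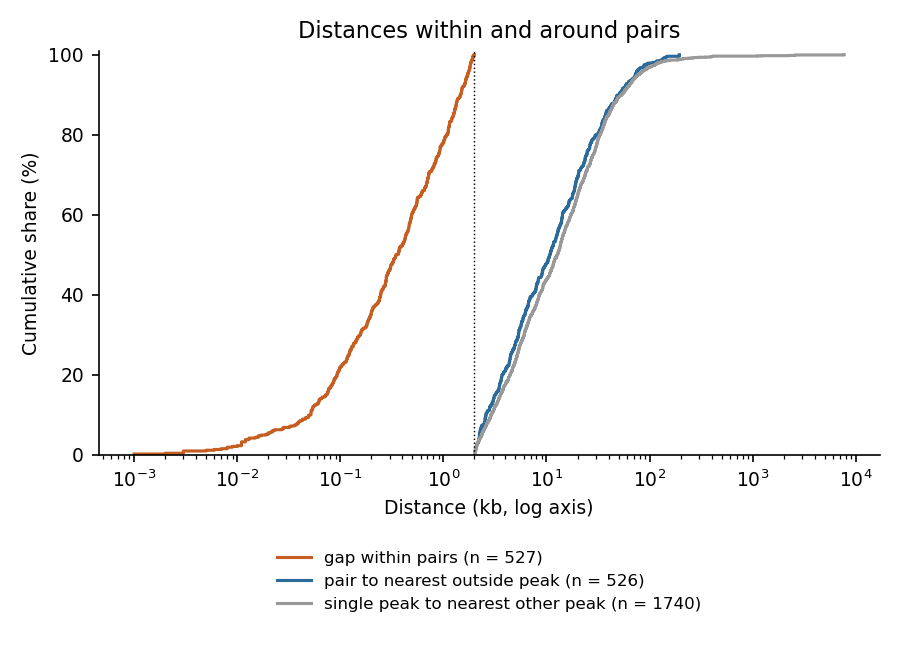
Cumulative share of distances, on a log axis in kb, for the gap within 527 pairs, the distance from 526 pairs to the nearest outside peak and the distance from 1740 single peaks to their nearest other peak, with the 2 kb limit of the rule as a dotted line. The curve of pairs (median 10.8 kb) runs close to and left of the curve of single peaks (median 12.7 kb).

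Among pairs with another peak on the chromosome, the most secluded lay on X at X:12096868-12097116 and X:12097398-12097986. This pair had no other peak for 195 kb before it and 228 kb after it. Its left peak scored 51.46 and its right peak 2335.4. Next came a pair on 2R at 2R:15712944-15713445 and 2R:15713742-15714401, with 193 kb to the nearest peak and scores of 746.45 and 2920.85. They were followed by a pair on 2L at 2L:19763797-19764286 and 2L:19764493-19765131, at 148 kb, and by a pair on X at X:17401009-17401314 and X:17401405-17401811, at 143 kb. Gaps within these 4 pairs ran from 90 to 296 bp, all under the median of all pairs. Of the pairs with a peak elsewhere on the chromosome, 11 had none within 100 kb on either side.

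The least secluded pairs stood just past the limit. On 3R, the pair at 3R:20101337-20101961 and 3R:20101977-20102592 began 2009 bp after another peak. On 3R, 2R and 3L, the pairs at 3R:12054762-12055414 and 3R:12057250-12057754, at 2R:10768645-10769140 and 2R:10769233-10769870, and at 3L:20394165-20395188 and 3L:20396226-20396675 had an outside peak at 2015, 2018 and 2020 bp. In order along the chromosome, 185 pairs (35.1%) had a pair as the next run on at least 1 side, against 641 of the 1741 single peaks (36.8%), and pairs were 20.6% of all runs. The pairs concerned formed 103 couples with no peak between them. In 22 of these couples the pairs lay under 5 kb apart.

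Every major arm carried pairs. There were 136 on 3R, 108 on X, 103 on 3L, 87 on 2R and 86 on 2L. As a share of the arm's own peaks, those in pairs were fewest on 2R, with 24.7%, and most on 3R, with 31.6%. X had 25.5%, 2L 27.3% and 3L 27.7%. X and 3R had nearly the same number of pairs per Mb, 4.83 and 4.88, counted up to the last peak of the arm, and 2L had 3.76. The median gap was shortest on 2L (278.5 bp) and 2R (280 bp), followed by X (303 bp), 3L (373 bp) and 3R (414 bp). The median lower score was 90.3 on 2L, 137 on 2R, 158 on 3L, 173 on X and 204 on 3R. The median higher score had another order, with 816 on X, 934 on 3R, 1048 on 3L, 1059 on 2L and 1161 on 2R. These differences between arms have no replicate, and the ranges of gaps overlapped on all arms.

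**Figure D5:**
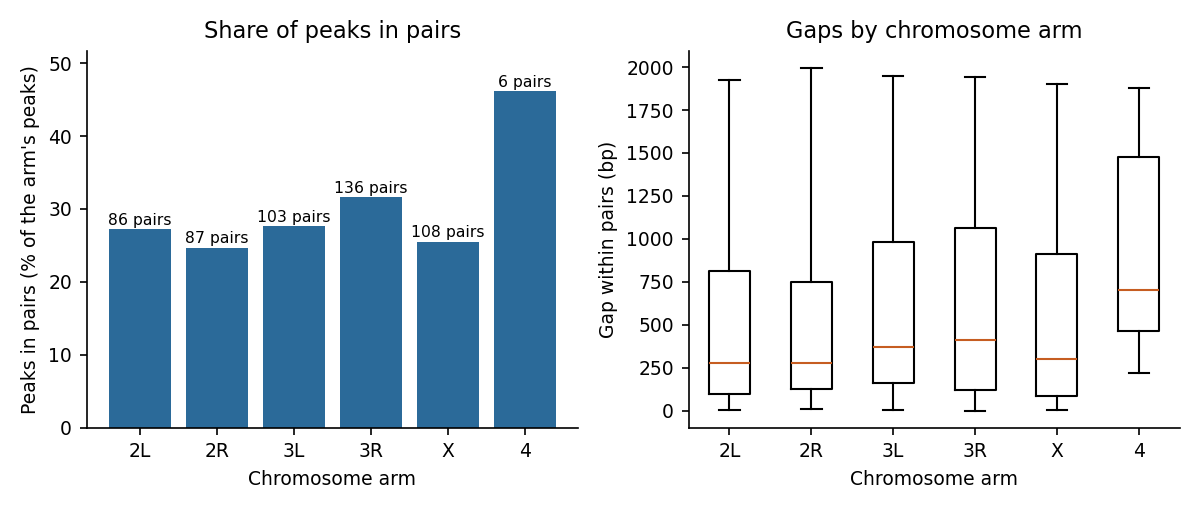
Left, share of each arm's peaks that lay in pairs, in percent, with the number of pairs above each bar. Right, gap within pairs in bp, with the median, the quartiles as box and the extremes as whiskers. Chromosome 4 has 6 pairs, and the major arms ran from 24.7% to 31.6%.

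Pairs were spread along the arms. Of 237 windows of 500 kb on the major arms, all of which held a peak, 205 held the centre of at least 1 pair and 32 (13.5%) held none. There was exactly 1 pair in 65 windows, and 46 windows held 4 or more. The fullest windows, picked after their values were seen, lay on 3L from 17500001 to 18000000 with 9 pairs among 48 peaks and on 3R from 14000001 to 14500000 with 8 pairs among 30 peaks. Next came windows with 7 pairs each. They lay on 3R from 9500001 to 10000000 (31 peaks) and from 17000001 to 17500000 (39 peaks), and on X from 3000001 to 3500000 (24 peaks). A window with fewer pairs, on 2L from 12000001 to 12500000, held 6 pairs among 17 peaks.

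The small, largely heterochromatic chromosome 4 carried 6 pairs, which took up 12 of its 26 peaks (46.2%). Their scores were mostly low, with a median lower score of 86.1 and a median higher score of 190. Scores of the other peaks of chromosome 4 were not summarised, so low scores are not read as a trait of its pairs. The strongest partner scored 1424.53, at 4:577723-578175, beside a peak with a score of 119.93 at 4:575561-575846. Peaks with scores of 77.21 and 865.1 formed the pair at 4:928351-928619 and 4:929547-929937. This pair came 2239 bp after the pair at 4:925394-925626 and 4:925848-926111, which scored 54.5 and 86.52. In the pairs at 4:202296-202628 and 4:204287-204524, at 4:338801-339157 and 4:339635-340048, and at 4:1260064-1260297 and 4:1260762-1260991, no peak scored above 210.15. The right peak was the stronger in all 6 pairs. On the scaffolds, 3RHet held the only pair, at 3RHet:790818-791240 and 3RHet:791516-791701, with scores of 530.92 and 264.08 and no other peak on the scaffold.

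Set beside the other runs, pairs lay between single peaks and longer runs. The median width was 492 bp in single peaks, 514 bp in pairs, 553.5 bp in runs of 3 and 603 bp in runs of 4 or more. The median score was 280.5, 421, 497 and 732 in the same order, and the tied score of 3100 was held by 5.51%, 6.45%, 8.43% and 11.3% of the peaks. The quartiles of all 4 classes overlapped widely, from 105 to 962 for the scores of single peaks and from 125 to 1256 for those of pairs. The median gap was 350 bp within pairs, 401 bp within runs of 3 and 396 bp within runs of 4 or more. Gaps under 250 bp made up 40.8%, 36.2% and 41.2% of the gaps in these classes. The classes were cut from one list by the same limit, and no difference between them was tested.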

How the data were processed

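Reads were aligned with Bowtie to BDGP5, per the submitters' processing notes, and the peak list names MACS as its caller, per the file headers. Versions, settings, the use of the input, duplicate treatment and pooling are not stated by these sources. Per the labels' protocols, chromatin was crosslinked in 1.8% formaldehyde for 15 minutes and sonicated for 15 minutes. The authors deposited 1 score per peak, used as it stands. Runs, gaps, midpoints, width ratios and distances were computed from the deposited starts and ends with Python 3.11.15, pandas 2.3.3, NumPy 2.4.6 and SciPy 1.17.1, and plotted with Matplotlib 3.10.9. The joining of peaks into runs was tested on simulated lists with known pairs. The 5 largest chromosome arms are called major arms. Named pairs are those at the extremes of lower score, gap, width ratio and distance to an outside peak, the pair with the highest summed score on each major arm, and all pairs on chromosome 4 and the scaffolds. The members and these lists were chosen with earlier results of these data known. With 1 sample and no read counts, no test was made and depth is unknown. Alternatives changed the gap limit, the distance used, the score minimum, the arms, and merged calls closer than 100 bp. The genes and the sequence of BDGP5 were not used here.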

Additional observations from a re-analysis of the deposited data

How the results depend on the processing

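All 9 summary values of the pairs were recomputed under 6 alternatives. Of these 54 values, 37 stayed within the 95% binomial interval of the value reported (for the number of pairs, within a factor of 1.5) and 17 moved beyond it. The interval treats pairs or peaks of 1 list as independent draws, so it serves only as a yardstick and measures no spread between replicates. Part of the tally was set by the alternatives themselves. The 5 major arms alone kept 520 pairs, or 98.7% of the reported pairs, so their values could hardly move. A score minimum of 100 bounds the lower score from below, and a gap limit of 1000 bp bounds the gap from above. The 37 values that stayed are therefore not read as a measure of how stable the results are. The number of pairs ran from 396 to 543 and moved in none. It hides a turnover. At a gap limit of 1000 bp, 411 of 519 pairs were also pairs at 2000 bp, which was 78.0% of the reported pairs. At 5000 bp it was 381 of 479, or 72.3% of the reported pairs. This share was lowest with scores of 100 or more, where 330 of 396 pairs were shared, or 62.6% of the reported pairs. A limit of 1000 bp gave a median gap of 242 bp, a median midpoint distance of 864 bp and 6879.5 bp to the nearest outside peak. A limit of 5000 bp gave 533 bp, 1159 bp and 16717 bp, with 24.9% of peaks in pairs. Limiting the midpoint distance to 2000 bp gave a median gap of 280 bp and 8097 bp to the nearest outside peak. Each limit bounds the distances within a pair and sets which peaks form pairs. The cause of these shifts was not tested. With peaks closer than 100 bp merged, the median gap was 530 bp, the midpoint distance 1193 bp and the width ratio 1.58. Merging removes the shortest gaps and makes new, wider peaks, and the cause of the higher width ratio was not tested. With scores of 100 or more, the midpoint distance was 1051 bp, the width ratio 1.45, the lower and higher scores 339.8 and 1301, and the wider peak was the stronger in 69.7% of pairs. The left peak was wider in 53.2% to 55.8% of pairs, and the rho of left and right scores was 0.06 to 0.09, under all 6. No paired analysis was possible because ChIP and input comprised 1 sample each and no test was made. Leaving out a sample would have left none. Unknown depth limits what weak peaks, and so 37.4% of pairs, can show.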
